A study of Caenorhabditis elegans with 6 samples.

Results

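Calcium that enters a neuron or muscle cell, or leaves its internal stores, acts through a chain of proteins that is shared by animals. Channels in the plasma membrane and in the endoplasmic or sarcoplasmic reticulum let calcium into the cytosol, where it binds calmodulin. Calmodulin switches on the calcium/calmodulin-dependent kinases (CaMKs) and the phosphatase calcineurin, and these act on transcription factors such as CREB and MEF2. NMDA-type glutamate receptors are themselves calcium-permeable and are a classical source of this signal at synapses.

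The 10 genes described here were taken by symbol from the 46911 gene identifiers counted in each library: the channel genes egl-19, unc-68 and itr-1, the kinase genes unc-43, cmk-1 and ckk-1, the calcineurin genes tax-6 and cnb-1, and the transcription factor genes crh-1 and mef-2. Each symbol matched 1 identifier. No measured value was used as a filter, but the genes were chosen with earlier results of these data known. All 10 passed the filter on low counts by themselves.

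RNA-seq reads per gene were counted in whole Caenorhabditis elegans labelled L4, the last larval stage. The 2 genotypes were nmr-2(ok3324), a strain with a deletion allele of an NMDA receptor subunit gene, and the wild type N2 (WT). Both were fed E. coli OP50 after a timed egg lay, and neither is labelled with any further allele, transgene or drug. Each genotype had 3 libraries, and the labels do not say whether they were grown as separate cultures. All p-values here rest on how far these libraries vary, and that variation may be technical. The comparison asks how transcript levels differ in animals that carry the receptor allele. In whole animals, fewer cells of a type and less RNA per cell cannot be told apart.

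Library totals lay between 21234748 and 27893186 counts, and values are given as CPM, counts scaled to a common library size, with TMM factors. On this scale 3 counts are worth 0.106 to 0.145 CPM. The factors stood apart in the libraries numbered 2, at 1.2 in nmr-2(ok3324) and 0.838 in WT, against 0.987 to 1.01 in the other 4. The targeted gene nmr-2 was read at 3, 5 and 5 counts in mutant replicates 1, 2 and 3 and at 7, 2 and 10 counts in WT, too few to check the genotype labels. Among 13138 genes tested with edgeR's quasi-likelihood test, 235 were higher and 49 lower in the mutant at a Benjamini-Hochberg adjusted p under 0.05, which is 2.16% of all tested. The words rose and fell are kept for that threshold.

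No gene of the 10 rose or fell. The count was 0 with edgeR, with DESeq2 and with limma-voom, where 2.16%, 3.12% and 1.95% of all tested genes were called. By direction, edgeR called 1.79% higher and 0.373% lower, DESeq2 2.32% and 0.799%, and limma-voom 1.64% and 0.304%. At an unadjusted edgeR p under 0.05 there were 2, egl-19 and crh-1, both with higher levels in the mutant, against 17.2% of all tested genes. In 8 of the 10 the log2 fold change was above 0, against 53.4% of all tested genes. The median over the 10 was 0.17 and that over all tested genes 0.03. The groups did not overlap for egl-19 and unc-43, both higher in the mutant, against 13.4% of all tested genes that were higher without overlap.

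**Figure D1:**
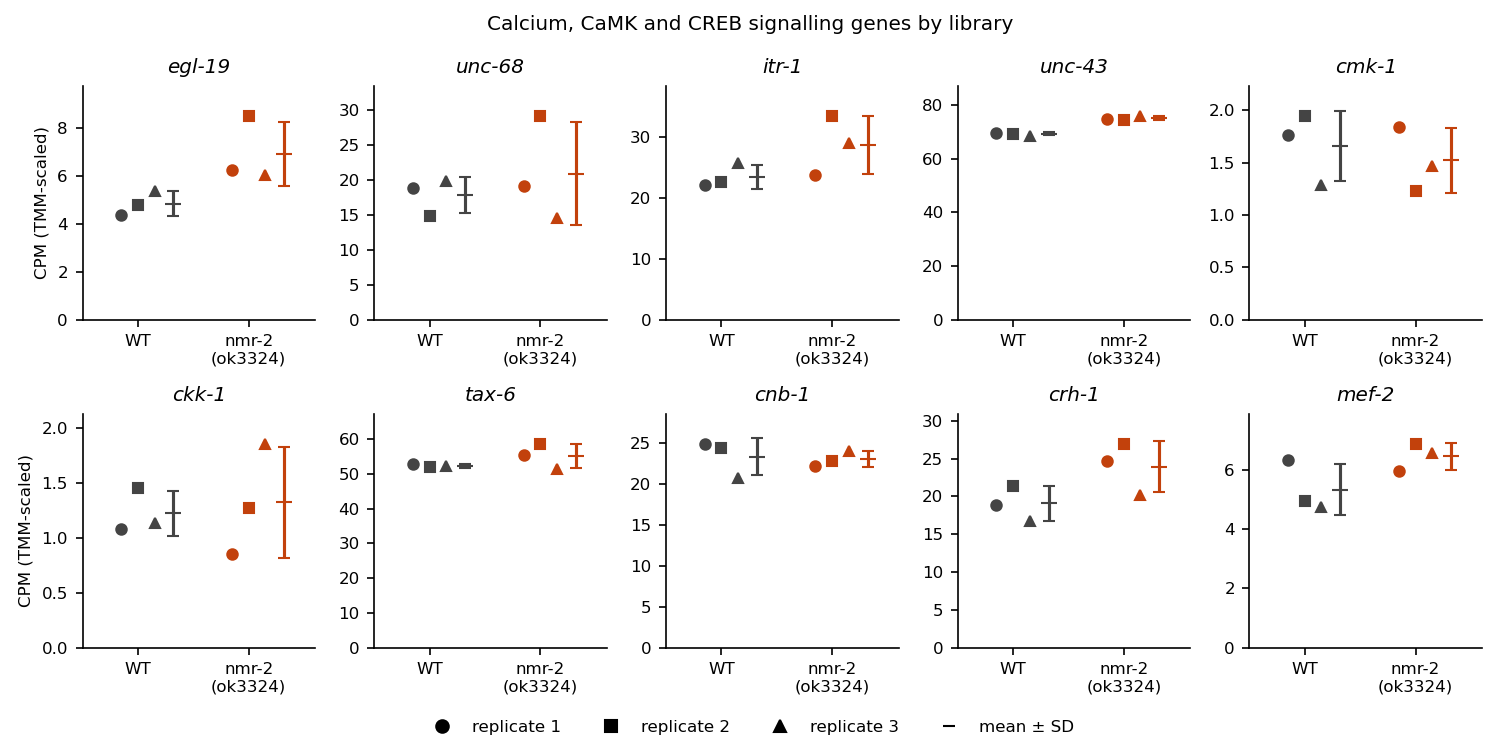
TMM-scaled CPM (vertical axes, from 0) of each of the 10 genes in the 3 WT libraries (grey) and the 3 nmr-2(ok3324) libraries (orange), with replicate number as the point shape and the group mean ± SD beside the points. The mutant points lie above the WT points for egl-19 and unc-43, and the square of nmr-2(ok3324) replicate 2 is the highest point for egl-19, unc-68 and itr-1.

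The first group of genes encodes channels that let calcium into the cytosol. egl-19 (WBGene00001187, chromosome IV, 7405582 to 7418740; coordinates are those of the WBcel235 annotation, as the authors' build is not given in the sources used here) encodes the pore-forming subunit of the L-type voltage-gated calcium channel, which carries the action potentials of worm muscle and also works in neurons. It stood at 4.35, 4.80 and 5.39 CPM in WT replicates 1, 2 and 3 and at 6.24, 8.48 and 6.03 CPM in the mutant, from 99 to 227 counts. Every mutant library was above every WT library, and mutant replicate 2 was the highest. The WT mean was 4.85 ± 0.525 CPM and the mutant mean 6.92 ± 1.35 CPM (SD, n = 3), a 1.43-fold difference. The log2 fold change was 0.51 (SE 0.21, 95% interval 0.08 to 0.95, unadjusted p = 0.024, edgeR adjusted p = 0.23), so the difference did not pass across all genes.

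The 2 store channels differ in the tissues they serve. unc-68 (WBGene00006801, chromosome V, 6901681 to 6929038) encodes the ryanodine receptor, which releases calcium from the sarcoplasmic reticulum of muscle. Its levels were 18.9, 14.9 and 19.8 CPM in WT and 19.1, 29.1 and 14.6 CPM in the mutant. The mutant libraries held both the highest and the lowest value of the 6, so the groups overlapped fully. The log2 fold change was 0.23 (SE 0.20, interval -0.20 to 0.66, edgeR adjusted p = 0.56). It turned to -0.09 without mutant replicate 2 and to -0.19 without both libraries numbered 2, with an edgeR adjusted p of 0.86 and 0.58.

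itr-1 (WBGene00002173, chromosome IV, 7675174 to 7696930) encodes the receptor for inositol trisphosphate (IP3), which drives the calcium waves of the intestinal defecation rhythm and the contractions of the gonad sheath and spermatheca. It stood at 22.1, 22.6 and 25.8 CPM in WT and at 23.8, 33.4 and 29 CPM in the mutant. Mutant replicates 2 and 3 lay above all WT libraries, and mutant replicate 1 lay among them. The log2 fold change was 0.29 (SE 0.14, interval -0.01 to 0.58, unadjusted p = 0.054, edgeR adjusted p = 0.30), and 0.13 without both libraries numbered 2. The interval for itr-1 ends at a 1.5-fold difference, and those for egl-19 and unc-68 at 1.93-fold and 1.58-fold.

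These 3 genes have long transcripts, and the libraries numbered 2 departed from the others with exon length. The exons of unc-68 cover 16.197 kb, those of itr-1 9.187 kb and those of egl-19 6.465 kb. For the 92 tested protein-coding genes with over 8 kb of exons, the median deviation from the gene's own mean over the 6 libraries was 0.37 in log2 CPM in mutant replicate 2 and -0.22 in WT replicate 2. In the other 4 libraries it lay between -0.06 and 0.02. For the 124 genes with 6 to 8 kb, the class of egl-19, it was 0.22 in mutant replicate 2 and -0.12 in WT replicate 2. For the 5452 genes with 1 to 2 kb of exons it lay between -0.02 and 0.06 in all 6. Over the long genes the median log2 fold change was 0.22, and 0.02 without both libraries numbered 2. unc-68 deviated by 0.62 in mutant replicate 2 and by -0.34 in WT replicate 2, itr-1 by 0.37 and -0.19, and egl-19 by 0.55 and -0.26. The lowest library of each was another one, mutant replicate 3 for unc-68 (-0.37) and WT replicate 1 for itr-1 (-0.22) and egl-19 (-0.40). The part of this length trend in the values of the 3 channel genes was not tested. Without both of these libraries egl-19 was at 0.33 (SE 0.23, edgeR adjusted p = 0.52).

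**Figure D2:**
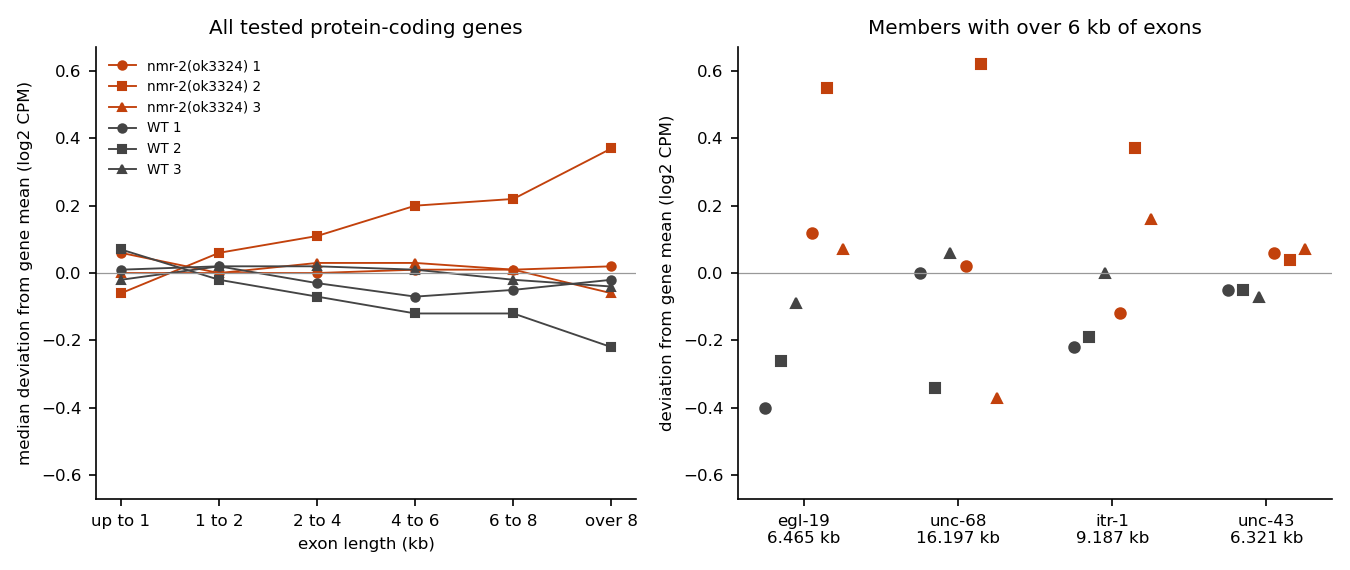
Deviation in log2 CPM from the mean of each gene over the 6 libraries (vertical axes), as the median of all tested protein-coding genes by exon length in kb (left) and for each of the 4 members with over 6 kb of exons (right), with WT in grey, nmr-2(ok3324) in orange and replicate number as the point shape. The line of nmr-2(ok3324) replicate 2 climbs to 0.37 and that of WT replicate 2 drops to -0.22 over 8 kb, and unc-68, itr-1 and egl-19 are highest in nmr-2(ok3324) replicate 2 while unc-43 is not.

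The kinase genes come next. unc-43 (WBGene00006779, chromosome IV, 10324254 to 10350217) encodes the worm's CaMKII, which acts in neurons and muscle and regulates the trafficking of glutamate receptors. It had 1430 to 2112 counts per library and stood at 69.7, 69.3 and 68.6 CPM in WT and at 74.9, 74.3 and 75.7 CPM in the mutant. Each group was tight, and the lowest mutant library lay above the highest WT library. The difference was 1.08-fold, with a log2 fold change of 0.12 (SE 0.10, interval -0.09 to 0.32, edgeR adjusted p = 0.54). The SD between libraries, 0.539 CPM for WT and 0.725 CPM for the mutant, was smaller than the 1.74 and 1.73 CPM that counting error alone would give. The edgeR error draws on the spread of genes at like levels as well as on these SDs. Although unc-43 has 6.321 kb of exons, its deviation in the libraries numbered 2 was 0.04 in the mutant and -0.05 in WT, and its log2 fold change without both of them was again 0.12.

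cmk-1 and ckk-1 form the second kinase branch, and both were rare. cmk-1 (WBGene00000553, chromosome IV, 1824481 to 1834247) encodes the worm's CaMKI/IV, known for its work in thermosensory neurons. It stood at 1.76, 1.94 and 1.29 CPM in WT and at 1.84, 1.23 and 1.47 CPM in the mutant, from 31 to 52 counts. The groups overlapped, with a log2 fold change of -0.13 (SE 0.32, interval -0.81 to 0.56, edgeR adjusted p = 0.87). ckk-1 (WBGene00000518, chromosome III, 5635479 to 5654564) encodes the CaMK kinase that phosphorylates and activates CMK-1. Its 24 to 39 counts gave 1.08, 1.45 and 1.13 CPM in WT and 0.851, 1.27 and 1.85 CPM in the mutant. The mutant values enclosed the WT values, with a log2 fold change of 0.11 (SE 0.38, interval -0.70 to 0.91, edgeR adjusted p = 0.90). As a ratio of mutant to WT, the 95% interval ran from 0.57 to 1.47 for cmk-1 and from 0.62 to 1.88 for ckk-1.

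Calcineurin works as a dimer of the products of tax-6 and cnb-1. tax-6 (WBGene00006527, chromosome IV, 10492869 to 10501600) encodes the catalytic A subunit, which tunes the sensitivity of sensory neurons and is also found in muscle. It stood at 52.9, 51.9 and 52.2 CPM in WT and at 55.5, 58.6 and 51.5 CPM in the mutant. Mutant replicate 3 was the lowest of the 6 libraries, so the groups overlapped. The log2 fold change was 0.08 (SE 0.10, interval -0.14 to 0.29, edgeR adjusted p = 0.70). cnb-1 (WBGene00000554, chromosome V, 11375742 to 11378006) encodes the calcium-binding B subunit. It stood at 24.8, 24.3 and 20.7 CPM in WT and at 22.2, 22.7 and 24.0 CPM in the mutant, with a log2 fold change of -0.02 (SE 0.12, interval -0.28 to 0.25, edgeR adjusted p = 0.96). As a ratio of mutant to WT, the 95% interval ran from 0.91 to 1.23 for tax-6 and from 0.82 to 1.19 for cnb-1.

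The last group encodes transcription factors at the end of the chain. crh-1 (WBGene00000793, chromosome III, 11657767 to 11693981) encodes the worm's CREB, which is phosphorylated downstream of CaMK and is needed for long-term memory. It stood at 18.9, 21.4 and 16.8 CPM in WT and at 24.7, 26.9 and 20.2 CPM in the mutant. Mutant replicates 1 and 2 lay above all WT libraries, and mutant replicate 3 lay below WT replicate 2. The means were 19.1 ± 2.31 and 23.9 ± 3.37 CPM (SD, n = 3), with a log2 fold change of 0.33 (SE 0.14, interval 0.03 to 0.63, unadjusted p = 0.034, edgeR adjusted p = 0.25). It was again 0.33 without both libraries numbered 2, and ran from 0.24 to 0.43 with single libraries left out. The exons of crh-1 cover 2.418 kb. Genes with 2 to 4 kb had a median deviation of 0.11 in mutant replicate 2 and -0.07 in WT replicate 2. crh-1 deviated by 0.34 and 0.01 in these libraries, and the part of the length trend in its values was not tested.

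mef-2 (WBGene00003182, chromosome I, 9095957 to 9100862) encodes the worm's MEF2, a MADS-box factor that acts in muscle on signalling back to motor neurons. It stood at 6.33, 4.95 and 4.75 CPM in WT and at 5.96, 6.87 and 6.56 CPM in the mutant. WT replicate 1 lay among the mutant libraries, and the other WT libraries lay below them. The log2 fold change was 0.27 (SE 0.20, interval -0.14 to 0.69, edgeR adjusted p = 0.46).

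**Figure D3:**
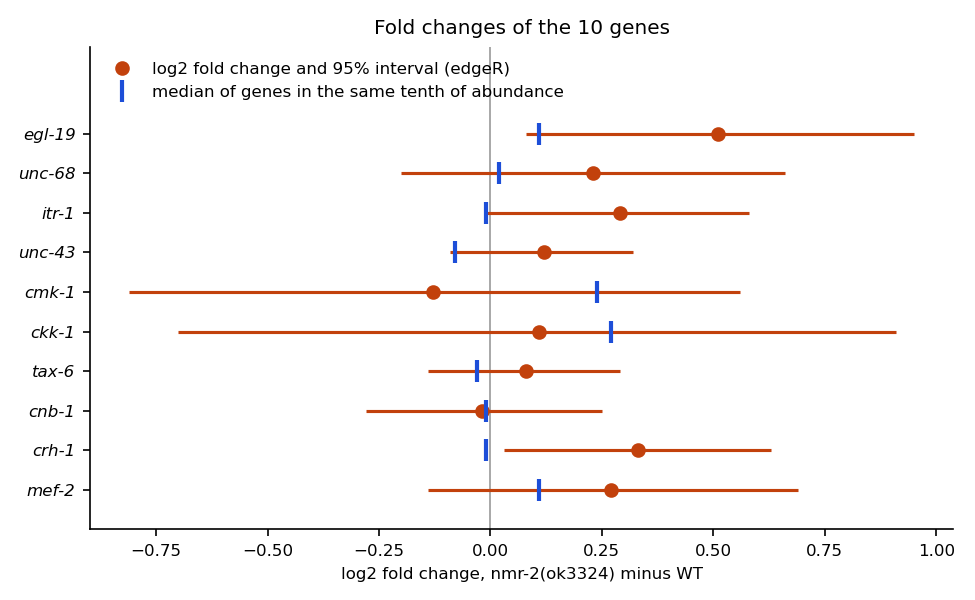
Log2 fold change of nmr-2(ok3324) against WT (horizontal axis) for the 10 genes, as the edgeR estimate with its 95% interval (orange), beside the median log2 fold change of all tested genes in the same 10% of abundance (blue bar). The intervals of egl-19 and crh-1 lie above 0 before adjustment, at 0.08 to 0.95 and 0.03 to 0.63, and those of cmk-1 and ckk-1 are the widest.

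The log2 fold change over all genes also moved with their level. Cut into 10 equal classes by mean log2 CPM, the tested genes had a median of 0.30 in the class of lowest level and -0.19 in that of highest level. Set beside the genes of its own class, egl-19 was at 0.51 against 0.11, crh-1 at 0.33 against -0.01, itr-1 at 0.29 against -0.01 and unc-43 at 0.12 against -0.08. cmk-1 and ckk-1, in classes 3 and 2 from the bottom, were at -0.13 against 0.24 and at 0.11 against 0.27. cnb-1 was at -0.02 against -0.01. The part of this trend in these values was not tested.

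Per length of exon, the 10 genes covered a wide range of levels. The calcineurin subunits were highest, cnb-1 with 19.9 ± 1.93 and tax-6 with 17.5 ± 0.166 CPM per kb in WT (SD, n = 3), and their ranges over the 6 libraries overlapped. The ratio of tax-6 to cnb-1 per kb lay between 0.835 and 1.01 in the 6 libraries. unc-43 followed with 10.9 ± 0.0853 and crh-1 with 7.88 ± 0.954 CPM per kb, whose ranges also overlapped. mef-2 with 2.84 ± 0.457 and itr-1 with 2.56 ± 0.219 CPM per kb formed the next overlapping pair. unc-68 (1.1 ± 0.159), cmk-1 (0.955 ± 0.194), egl-19 (0.750 ± 0.0812) and ckk-1 (0.571 ± 0.0962) CPM per kb closed the order, and each overlapped its neighbour. The ranges stood apart between tax-6 and unc-43, between crh-1 and mef-2, and between itr-1 and unc-68.

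Within the kinases, unc-43 exceeded cmk-1 by 9.85-fold to 16.6-fold per kb in each of the 6 libraries, while cmk-1 and ckk-1 differed by 0.975-fold to 2.66-fold. Between the store channels, itr-1 exceeded unc-68 by 2.03-fold to 3.49-fold per kb in every library. crh-1 exceeded mef-2 by 2.33-fold to 3.37-fold. The length used is the union of all annotated exons. For unc-43, with 25 annotated transcripts, it is longer than any of them, and so it is for crh-1 (2.418 against 1.615 kb), cnb-1 and tax-6. With the longest transcript in its place unc-43 came to 14.3, crh-1 to 11.8, cnb-1 to 23.2 and tax-6 to 18.2 CPM per kb in WT. mef-2 stayed at 2.84 CPM per kb. The ratios between genes and the overlaps of their ranges were computed with the union length only.

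**Figure D4:**
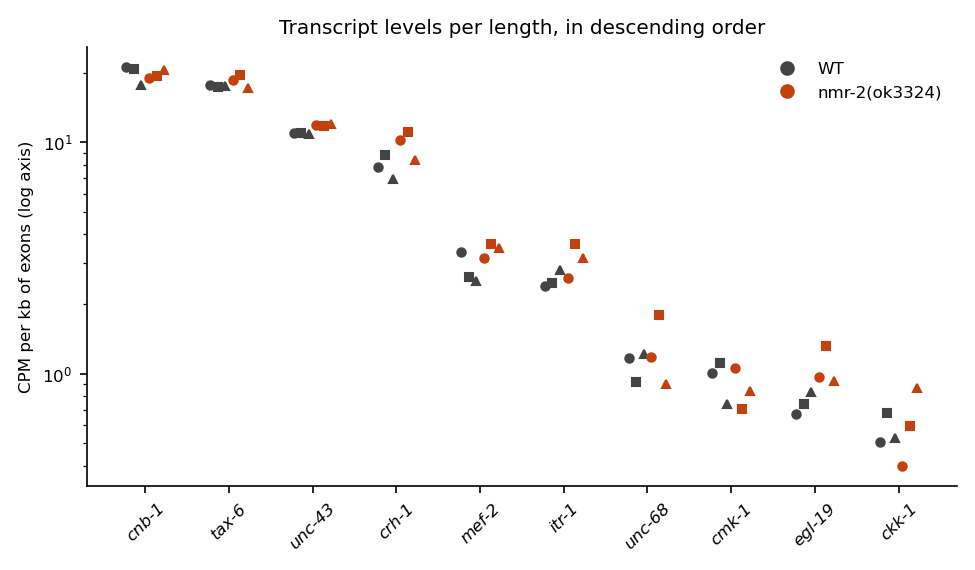
CPM per kb of exons (vertical log axis) of the 10 genes in descending order, for the 3 WT libraries (grey) and the 3 nmr-2(ok3324) libraries (orange), with circles, squares and triangles for replicates 1, 2 and 3. The calcineurin genes cnb-1 and tax-6 lie at 17.3 to 21.2 CPM per kb and ckk-1 at 0.399 to 0.867 CPM per kb.

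Whether counting used strand is not given in the sources used here. The exons of 4 of the 10 overlap those of an annotated gene on the other strand. The only neighbours among them with counts are ced-5, which shares 45 bases with tax-6 (1.51% of its exon length), and gei-17, which shares 20 bases with mef-2 (1.06%).

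Of the 3 genes with a library profile nearest to that of egl-19 among all tested, picd-1, K06A9.1 and ddx-46, none passed the threshold. Likeness was the root mean square difference of log2 CPM, each gene centred on its own mean over the 6 libraries. It was 0.043 for picd-1, 0.052 for K06A9.1 and 0.056 for ddx-46, against a median of 0.381 over all tested genes. All 3 were highest in mutant replicate 2, at 80.2, 10.3 and 77.3 CPM, as egl-19 was, which follows from how they were picked.

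Beyond the 10, a list of 85 other genes of calcium signalling was followed by role, of which 81 matched an identifier and 70 were tested. Of the 70, 1 rose, 0 fell and 69 did not pass, against 2.16% of all tested genes called. The median log2 fold change was 0.20 against 0.03 over all tested genes, and 55 of 70 values (78.6%) were above 0 against 53.4%. The list was not set beside genes of like level, whose medians ran from 0.30 in the lowest class to -0.19 in the highest. The part of that trend in these values was not tested. At an unadjusted p under 0.05 there were 16 of 70, or 22.9% against 17.2% of all tested genes. Without both libraries numbered 2 the median of the list was 0.09 and 4 genes passed, csq-1, mca-2, ncx-1 and cnp-2, in a fit that called 4.01% of all genes tested.

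The gene that rose was mca-2, which encodes a plasma membrane calcium pump that clears calcium from the cell. It went from 42.4, 38.3 and 44.0 CPM in WT to 55.7, 57.9 and 56.2 CPM in the mutant. Both groups were tight and did not overlap, with means of 41.6 ± 2.95 and 56.6 ± 1.18 CPM (SD, n = 3), a 1.36-fold difference. On the log2 scale this was 0.44 (SE 0.10), with an edgeR adjusted p of 0.036, and with adjusted p = 0.029 by DESeq2 and 0.043 by limma-voom. The call was lost without any 1 library other than mutant replicate 2, at adjusted p of 0.079 to 0.16, with RLE factors (0.056), with library totals alone (0.066) and with the replicate number as a block (0.23). Its log2 fold change lay between 0.37 and 0.62 over all 14 alternatives and was 0.37 without both libraries numbered 2, with adjusted p = 0.016.

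None of the other 11 tested genes of calcium extrusion and mitochondria passed. The sodium/calcium exchanger gene ncx-1 was at 51.6, 45.7 and 48.8 CPM in WT and at 73.4, 56.5 and 60.3 CPM in the mutant, with no overlap, yet did not pass (log2 fold change 0.38, SE 0.12, edgeR adjusted p = 0.13). It passed without mutant replicate 2 (0.45, adjusted p = 0.036) and without both libraries numbered 2 (0.42, adjusted p = 0.0064). The pump gene mca-3 was at 346 ± 17.3 CPM in WT and 340 ± 11.1 in the mutant (log2 fold change -0.03). The mitochondrial uniporter gene mcu-1 was at 50.9 ± 4.84 and 51.2 ± 5.67 CPM (0.01).

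Among the proteins of the calcium store, csq-1, which encodes calsequestrin, the calcium buffer of the sarcoplasmic reticulum, was at 129, 112 and 116 CPM in WT and at 151, 153 and 143 CPM in the mutant. The groups did not overlap, and the log2 fold change of 0.32 (SE 0.11) had an edgeR adjusted p of 0.15, and of 0.032 without both libraries numbered 2. The junctophilin gene jph-1 was at 0.37 (SE 0.19, adjusted p = 0.32), at 0.14 without mutant replicate 2 and at 0.04 without both libraries numbered 2. The calcium pump gene sca-1 of the reticulum was at 668 ± 42.0 CPM in WT and 668 ± 83.0 in the mutant, and the calreticulin gene crt-1 at 1040 ± 85.0 and 918 ± 108 CPM.

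None of the 10 tested plasma membrane channel genes passed, with a median of 0.44 and 8 of 10 above 0, against 53.4% of all tested genes. These channel genes were not set beside genes of like level or like exon length. unc-2, which encodes the presynaptic calcium channel of neurons, was at 5.45 ± 0.820 CPM in WT and 7.34 ± 0.311 in the mutant without overlap (log2 fold change 0.43, SE 0.19, edgeR adjusted p = 0.26). unc-80, which encodes a subunit of the sodium leak channel complex, was at 0.67 (SE 0.31, adjusted p = 0.29), and at 0.36 without WT replicate 3.

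Calmodulin is the sensor that links calcium to the kinases and calcineurin, and its gene cmd-1, added outside the naming rule, stood at 334 ± 29.8 CPM in WT and 334 ± 26.3 in the mutant, with a log2 fold change of 0.00 (SE 0.12). None of the 11 tested sensor genes passed. The neuronal calcium sensor gene ncs-3 had the smallest p (1.41 ± 0.085 against 2.42 ± 0.288 CPM, 0.78, SE 0.28, edgeR adjusted p = 0.19), followed by cal-5 (0.19, SE 0.11, adjusted p = 0.37; 0.30 without both libraries numbered 2).

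The calcineurin partners had a median of 0.50 over 3 tested genes, none of which passed. rcan-1, which encodes the calcineurin regulator calcipressin, was at 7.14, 5.82 and 5.03 CPM in WT and at 9.44, 8.59 and 7.55 CPM in the mutant. Every mutant library was above every WT library, with a log2 fold change of 0.51 (SE 0.19, edgeR adjusted p = 0.20). cnp-2 was at 20.2 ± 3.36 and 28.5 ± 3.73 CPM (0.50, SE 0.14, adjusted p = 0.10). It passed without WT replicate 2 (0.64, adjusted p = 0.023) and without both libraries numbered 2 (0.58, adjusted p = 0.0058).

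Partners of CREB and MEF2 had a median of 0.03 over 6 tested genes, and none passed. The class II histone deacetylase gene hda-4 was at 16.2 ± 0.523 and 18.5 ± 0.749 CPM without overlap (0.19, SE 0.13, edgeR adjusted p = 0.43), and the coactivator gene cbp-1 was at 0.12 (SE 0.12, adjusted p = 0.61), and at 0.04 without mutant replicate 2 and 0.02 without WT replicate 1. crtc-1, which encodes the CREB coactivator that calcineurin acts on, was at 11.1 ± 0.833 and 11.1 ± 0.615 CPM.

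All 11 tested genes of the IP3 and protein kinase C arm had log2 fold changes above 0, against 53.4% of all tested genes. Their median was 0.28, and none passed. They too were not set beside genes of like level or like exon length. The phospholipase C beta gene egl-8 was at 44.6, 39.5 and 42.4 CPM in WT and at 49.2, 58.7 and 51.3 CPM in the mutant. The groups did not overlap, and mutant replicate 2 was again the highest (0.33, SE 0.11, edgeR adjusted p = 0.15). ipp-5, which encodes an inositol phosphatase, was at 0.42 (SE 0.19, adjusted p = 0.27), and at 0.21 without mutant replicate 2. Without both libraries numbered 2, egl-8 was at 0.21 and ipp-5 at 0.15.

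Of 10 tested genes for CaMKII-linked kinases and calcium-activated potassium channels none passed, with a median of 0.29. nsy-1, the kinase that acts downstream of UNC-43 in olfactory neuron asymmetry, was at 16.6 ± 1.56 and 22.2 ± 2.43 CPM without overlap (0.42, SE 0.14, edgeR adjusted p = 0.15). The death-associated protein kinase gene dapk-1 was at 27.5 ± 1.84 and 35.2 ± 1.85 CPM, likewise without overlap (0.35, SE 0.11, adjusted p = 0.14). Without both libraries numbered 2, nsy-1 was at 0.27 and dapk-1 at 0.34.

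Of the NMDA receptor list 2 genes were tested. nmr-2 was kept in the fit at any level (log2 fold change -0.64, SE 0.74, with an edgeR adjusted p of 0.66). grld-1, which encodes a regulator of glutamate receptor splicing, was at -0.13 (SE 0.12, adjusted p = 0.58). The partner subunit gene nmr-1 had 0 to 9 counts per library and was not tested.

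**Figure D5:**
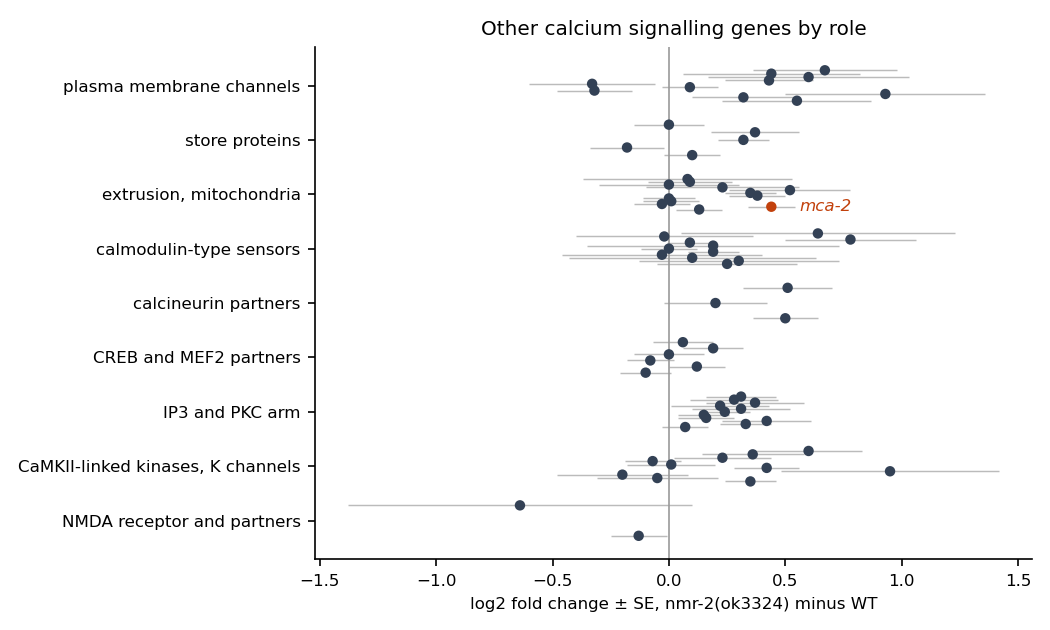
Log2 fold change ± SE of nmr-2(ok3324) against WT (horizontal axis) for the 70 tested genes outside the 10, grouped by role, with the gene past the edgeR threshold in orange. mca-2 at 0.44 is the orange point, and the points of the IP3 and PKC arm all lie above 0.

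Markers of the tissues that hold these proteins were read beside them. Of 16 tested body wall muscle genes 1 rose, unc-89, a giant muscle protein gene (41.7 ± 5.36 against 68.5 ± 15.7 CPM, log2 fold change 0.72, SE 0.15, with an edgeR adjusted p of 0.016). The other 15 did not pass, myo-3 among them (0.36, SE 0.11, adjusted p = 0.13). The unc-89 call was lost with library totals alone (edgeR adjusted p = 0.064), with the replicate number as a block (0.17) and without WT replicate 1 (0.069). It was kept without both libraries numbered 2, at a lower value of 0.42 (edgeR adjusted p = 0.0062). The median of the list was 0.10, and its summed level was 9594.5 to 10567 CPM in WT and 9842.4 to 11696 CPM in the mutant. None of 7 tested pharyngeal muscle genes passed, with a median of 0.48 and sums of 96.2 to 109.5 and 119.01 to 143 CPM, and the smallest p for the myosin genes myo-2 (0.48, SE 0.12, adjusted p = 0.050) and myo-1 (0.51, SE 0.15, adjusted p = 0.11). None of 16 tested pan-neuronal genes passed either, with a median of 0.34 and 14 of 16 above 0, against 53.4% of all tested genes. Their smallest p values were those of unc-104 (0.70, SE 0.26, edgeR adjusted p = 0.19) and unc-13 (0.48, SE 0.19, edgeR adjusted p = 0.23). The pan-neuronal sums, 235.4 to 260.2 CPM in WT and 234.55 to 260.1 CPM in the mutant libraries, include snb-1 at 147 ± 7.72 and 128 ± 8.49 CPM. The part of muscle and neuron content in the values of the 10 genes was not tested. The tissue lists were not set beside genes of like level, whose medians ran from 0.30 in the lowest class to -0.19 in the highest. The part of that trend in the medians of the tissue lists was not tested.

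The other tissue lists covered intestine, germline, epidermis and sperm, and were likewise not set beside genes of like level. The medians were -0.20 for 9 tested intestinal genes (sums of 3599 to 5072 CPM in WT and 2922 to 4069 in the mutant) and -0.13 for 14 tested germline genes (4056 to 4497 and 3302 to 4002 CPM), and none of either list passed. The smallest p values were those of mtl-2 (-0.30, SE 0.11, edgeR adjusted p = 0.20) and cpr-6 (-0.36, SE 0.14), and of pgl-3 (-0.35, SE 0.13) and htp-3 (-0.26, SE 0.12). Of 12 tested epidermal genes the collagen genes dpy-5 (1.95, SE 0.15) and sqt-3 (0.98, SE 0.20) rose and 10 did not pass (median 0.40, sums of 2033 to 2570.1 and 1927 to 2560.3 CPM). The sqt-3 call was lost without mutant replicate 1 (edgeR adjusted p = 0.085) and without WT replicate 3 (0.061). Most of the epidermal sums came from col-19, at 2110 ± 283 CPM in WT and 2080 ± 309 in the mutant. How far these epidermal genes follow the amount of epidermis, rather than the exact stage of the animals, was not tested. Most of the intestinal sums came from asp-1, at 2430 ± 662 and 2120 ± 533 CPM. Of 10 tested sperm genes none passed (median 0.08, and -0.04 to 0.29 with single libraries left out, sums of 361 to 538 and 374 to 484 CPM), with spe-11 at 0.86 (SE 0.22, adjusted p = 0.052) and fog-1 at -0.52 (SE 0.18).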

How the data were processed

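Whole-animal RNA-seq of 3 nmr-2(ok3324) and 3 WT libraries was used as raw counts per gene, deposited by the authors with 1 table per library; HTSeq and DESeq2 are named in the submitters' processing notes, while for aligner, genome build, annotation and strand setting nothing is given in the sources used. Library totals were 21234748 to 27893186, and intervals cover the spread between libraries. Identifiers were matched to the Ensembl annotation of WBcel235 (46863 of 46911).

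The counts were filtered with filterByExpr, with nmr-2 kept at any level, scaled by TMM and tested with edgeR 4.0.16 (robust quasi-likelihood test, group as the only term) in R 4.3.3. Benjamini-Hochberg adjustment ran over all 13138 tested genes. On counts simulated for this comparison (12878 genes), 35.8%, 65.7% and 97.0% of genes changed 1.5-fold, 2-fold and 4-fold were recovered, and 5 of 137 calls were false. The simulated counts held neither the length trend of the libraries numbered 2 nor the trend with level. The shares cover genes of all levels, so they do not apply to rare genes such as cmk-1 and ckk-1. DESeq2 1.42.0, limma-voom 3.58.1, other scalings and filters, a replicate block and left-out libraries were alternatives. Levels per kb use the union of annotated exons; the longest transcript was an alternative chosen after seeing the data.

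All 10 members were described. In each other list up to 2 genes with the smallest p were named, as were those past the threshold; for egl-19 the 3 nearest library profiles were named. Further genes (cmd-1, mca-3, mcu-1, sca-1, crt-1, crtc-1, snb-1, col-19, asp-1) were named after their values were seen. The members and lists were chosen with earlier results of these data known. Promoter and protein sequences were not used here.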

Additional observations from a re-analysis of the deposited data

How the results depend on the processing

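None of the 10 genes passed the threshold under any of the 14 alternatives. The log2 fold changes of egl-19 (0.33 to 0.71), crh-1 (0.24 to 0.52), itr-1 (0.13 to 0.47) and unc-43 (0.09 to 0.29) were above 0 in all of them. unc-68 (0.23) turned to -0.19 without both libraries numbered 2 and ran from -0.09 to 0.43 with single libraries left out. cmk-1 (-0.13) turned to 0.04 with library totals alone and 0.13 without both libraries numbered 2, and ran from -0.30 to 0.0017 with single libraries left out; ckk-1 (0.11) ran from -0.20 to 0.35. cnb-1 (-0.02) turned to 0.16 and 0.02 and ran from -0.11 to 0.03, and grld-1 turned to 0.04 and 0.01. The cause of these turns was not tested. Library totals alone moved the median of all genes to 0.20; relative to it cmk-1 was at -0.16, cnb-1 at -0.04 and the median of the 10 genes at 0.16.

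No pairing by replicate number was seen: deviations of same-numbered libraries from their group means correlated at 0.00, -0.28 and -0.10. With 3 libraries per group this cannot tell whether same-numbered libraries shared a batch. With the replicate block 124 genes were higher and 18 lower, the pathway list had 0 calls and body wall muscle 0.

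The share of all tested genes called was 2.16%, and 3.12% with DESeq2, 1.96% with RLE factors, 1.48% with library totals, 3.06% with no filter, 2.43% with a 1 CPM filter, 1.08% with the replicate block, 4.01% without both libraries numbered 2 and 1.42% to 1.92% with single libraries left out. Over all genes, 235 higher calls became 441 with no filter, 345 without both libraries numbered 2 and 151 to 226 with single libraries left out. The 49 lower calls became 105 with DESeq2, 16 with library totals, 155 with no filter, 185 without both libraries numbered 2, and 30 to 52 with single libraries left out. Pathway calls (1) became 0 with RLE factors, 0 with library totals, 2 with no filter, 4 without both libraries numbered 2 and 0 to 2 with single libraries left out. Body wall muscle calls (1) became 0 with library totals, 4 without both libraries numbered 2 and 0 to 1 with single libraries left out. Pharyngeal calls (0) became 1 with DESeq2, 3 with no filter, 1 with a 1 CPM filter, 1 without both libraries numbered 2 and 0 to 1. Epidermal calls (2) became 4 with DESeq2, 4 with no filter and 1 to 3. Higher sperm calls (0) became 1 with DESeq2, 1 with no filter, 3 without both libraries numbered 2 and 0 to 1, and lower ones 1 with no filter. Without both libraries numbered 2, 1 pan-neuronal and 1 intestinal gene were higher, and 1 intestinal and 1 germline gene lower; DESeq2 also called 1 intestinal gene lower.

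With library totals alone the medians were 0.36 for the 10 genes, 0.38 for the pathway, 0.28 for body wall muscle, 0.64 for pharynx, 0.52 for neurons, -0.02 for intestine and 0.05 for germline. Without both libraries numbered 2 they were 0.09 for the pathway, 0.18 for epidermis, -0.06 for germline and 0.40 for sperm. With single libraries left out they ran from 0.12 to 0.30 for the 10 genes, 0.12 to 0.23 for the pathway, 0.04 to 0.14 for body wall muscle, -0.33 to 0.03 for intestine, 0.14 to 0.69 for epidermis and -0.04 to 0.29 for sperm. cmk-1 and ckk-1 had 24 to 52 counts per library. Counting error alone would give ckk-1 an SD of 0.232 (WT) and 0.235 CPM (mutant), against 0.206 and 0.503 CPM measured.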
